A study of Homo sapiens with 24 samples.

Results

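The 12 arrays described here measured RNA in control cells of the P3HR1 line, 6 after 24 h and 6 after 12 h of doxycycline, out of 24 arrays in all. They were chosen by their labels as the control arrays of each time. P3HR1 is an established Burkitt lymphoma line, a B-cell tumour line that carries Epstein-Barr virus. The control cells carried the pRTS1 vector, from which doxycycline switched on green fluorescent protein (GFP) alone, and the other 12 arrays held cells whose vector also carried the miR-28 precursor. Both times had 3 inductions of bulk population A and 3 of bulk population B, so that 2 separately made populations stood behind each group. Cells were grown in IMDM medium with fetal calf serum, and total RNA was extracted with Trizol. Doxycycline was used at 0.1 ug/ml by one field of the labels and at 1 ug/ml by another, alike in all groups. Every control array came from induced cells, so time in culture, time in doxycycline and time with GFP lengthened together and cannot be told apart. Replicates were inductions of the same 2 populations. The p-values for genes measure the spread between arrays, estimated over all 24 arrays, those of miR-28 cells included, unless stated.

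B cells that divide pass from G1 into S phase when cyclin E and CDK2 release the E2F transcription factors, which switch on the genes that load, fire and copy replication origins and that make deoxynucleotides. Genes of G2 and mitosis follow later, through the CHR promoter element and the factors FOXM1 and MYB-MuvB. Burkitt lymphoma cells carry a MYC translocation and divide fast, and B cells also respond to their culture through NF-kB, oxygen, sterol and amino acid sensors.

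Each value is a probe-set intensity, the brightness of the probes for a transcript, set by the authors to a common mean per array. A change is the difference of mean log2(intensity + 8), 24 h minus 12 h, with its standard error (SE) from limma, in which a gene was called at a Benjamini-Hochberg adjusted p under 0.05. Levels of different genes are not compared, because probes differ in brightness. In bulk RNA, fewer cells in a state and less RNA per cell cannot be told apart.

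Of 11380 genes tested, 699 were called (6.14%), of which 410 rose (3.6%) and 289 fell (2.54%) between 12 h and 24 h. The counts in gene lists below are to be read beside these shares. Most changes were modest, since 102 rises and 59 falls exceeded 1.5-fold and the median change of all genes tested was -0.003. The 6 arrays of one time lay wholly above or below the 6 of the other for 447 genes (3.93%), among them 229 of the rises and 141 of the falls. Leaving out each control array in turn kept the call of 397 of the 699 genes in all 12 such fits. The count of calls was 421 after centring each array on its median, 364 with no filter on dim genes and 397 in a fit to the 12 control arrays alone.

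Array quality moved little with time. The median intensity was 85.4 ± 5.15 at 12 h and 84.3 ± 4.97 at 24 h (SD, n = 6). The log2 ratio of 3' to 5' GAPDH control signal was -0.07 ± 0.04 and 0.03 ± 0.13, the measure with the lowest p among 6 exact two-sided permutation tests (p = 0.0281, adjusted p = 0.0974). That ratio was highest on 24 h array B2, at 0.29, where the ACTB ratio was 1.59 against at most 0.87 on the other arrays. Arrays of one group correlated across genes with r between 0.954 and 0.967. In a principal component plot of the control arrays, 12 h array A3 and 24 h array B2 stood at opposite ends of the second component, and a fit without both, chosen after seeing the data, called 685 genes (367 rises and 318 falls). All 9 B-cell markers with a probe set passed the filter on dim genes, as did 3 of 8 T-cell, 2 of 6 myeloid and 2 of 6 NK-cell markers. Of 9 fibroblast and epithelial markers, 4 passed it. Among markers of other cells, LCK had 5713 ± 788 at 12 h and 5813 ± 790 at 24 h without a call, and VIM is described below. The NK-cell marker PRF1 had 328 ± 60.6 at 12 h and 237 ± 45.2 at 24 h, also without a call.

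Most genes of the G1/S transition and of DNA replication rose. Of 38 such genes tested, 32 rose and none fell, with a median change of 0.56 against -0.003 for all genes tested. All 38 changes were above 0, from 0.18 for ORC6, a subunit of the origin recognition complex, to 0.95 for CCNE1, which encodes cyclin E1. The mean of the list on each array, relative to the 12 h mean, ran from -0.14 to 0.11 at 12 h and from 0.52 to 0.65 at 24 h, so that no array of one time reached the other. The median change was 0.54 in population A and 0.66 in population B.

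CCNE1 had an intensity between 528 and 760 on the 12 h arrays (median 599) and between 1010 and 1389 on the 24 h arrays (median 1220). All 24 h arrays lay above all 12 h arrays, and the rise was 0.95 ± 0.12 (adjusted p = 7.34e-05). CDC6, which loads the replicative helicase onto origins, ran from 1012 to 1301 at 12 h (median 1273) and from 2044 to 2680 at 24 h (median 2230). Again the groups were apart, and its 2 bright probe sets gave rises of 0.88 ± 0.11 and 0.87 ± 0.15. POLE2, a subunit of the leading-strand polymerase epsilon, lay between 1328 and 1519 (median 1399) and then between 2040 and 2706 (median 2356). It rose by 0.73 ± 0.08 (adjusted p = 5.94e-06), by 0.67 in population A and 0.79 in B. GINS2, part of the helicase complex, went from 3329 ± 307 to 5561 ± 375 (SD, n = 6), a rise of 0.74 ± 0.08. GINS2 also has 2 dim probe sets, with changes of 0.60 ± 0.28 and -0.31 ± 0.40.

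The roles represented ran from origin licensing to the fork. All 7 origin and helicase genes MCM2 (0.29), MCM3 (0.47), MCM4 (0.60), MCM5 (0.56), MCM6 (0.32), MCM7 (0.56) and MCM10 (0.71) rose. The sliding clamp PCNA rose by 0.54 and its loader subunits RFC2, RFC3, RFC4 and RFC5 by between 0.42 and 0.67. The phosphatase CDC25A, which activates CDK2, went from 1186 ± 210 to 2035 ± 225 and rose by 0.79 ± 0.12. In the E2F family of transcription factors, E2F2 (0.65 ± 0.10) and the repressor E2F8 (0.79 ± 0.17), rose, while E2F1 had a change of 0.52 ± 0.21 that did not pass (adjusted p = 0.155). The other members that did not pass were CDT1, GINS4, CHAF1B, POLE and ORC6, with changes between 0.18 and 0.58. The count of rises was 29 after median centring, between 29 and 32 when 1 control array was left out, and 31 without the 2 arrays that stood apart. With the mean of a gene's probe sets in place of the brightest, 29 of the 32 kept their call, and GINS2 (adjusted p = 0.345), E2F2 (0.0628) and RFC3 (0.499) lost it.

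**Figure D1:**
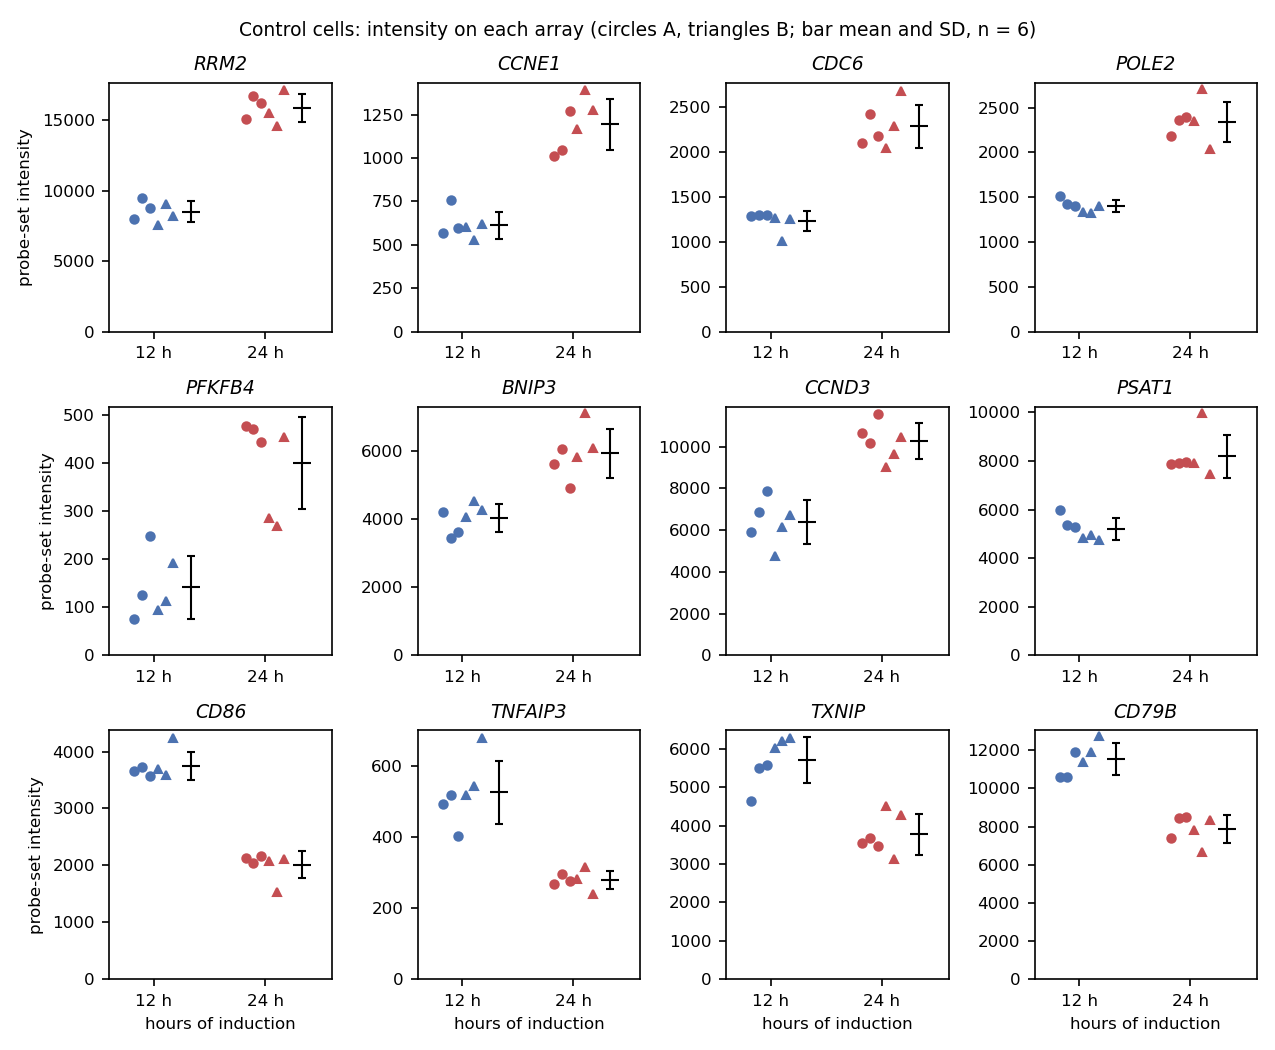
Probe-set intensity (vertical axis, linear, from 0) of 12 genes on each of the 6 control arrays at 12 h (blue) and the 6 at 24 h (red), with circles for population A, triangles for population B and black bars for the mean and SD. In all 12 panels the arrays of one time lie wholly above or below those of the other, as for RRM2 (7581 to 9487 against 14570 to 17140) and CD86 (3564 to 4235 against 1527 to 2157).

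The promoters of this list and of the mitotic list are shown as a description of their letters. List members were picked by role, and whether the letters bear on the calls was not tested. Of 38 members, 32 had a promoter of 300 bases (250 before and 50 after the transcript start) in the RefSeq table for GRCh38.p14. The E2F motif TTTNGCGC, searched on both strands, occurred in 15 of the 32 (46.9%), against 3.03% of the 9285 genes tested that had a promoter and 1.83% of all 27305 promoters. Among all rises, which include those of this list, it occurred in 7.65%, and among all falls in 2.81%. Below are 150 bases, 120 before and 30 after the start, for 4 risen members with a large statistic and a match in this window. Not every member was eligible to be shown, so these need not be the 4 with the largest statistic. Each stretch is read 5′ to 3′ on the gene's strand with matches in capitals.

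POLE2, chr14:49688185-49688334, minus strand: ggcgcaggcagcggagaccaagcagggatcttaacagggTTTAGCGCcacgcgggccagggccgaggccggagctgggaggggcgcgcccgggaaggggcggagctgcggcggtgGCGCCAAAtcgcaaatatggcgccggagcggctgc
CDC6, chr17:40287759-40287908, plus strand: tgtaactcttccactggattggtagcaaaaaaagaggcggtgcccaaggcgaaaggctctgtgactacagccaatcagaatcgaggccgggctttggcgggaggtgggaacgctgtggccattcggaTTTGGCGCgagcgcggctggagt
CDC25A, chr3:48188388-48188537, minus strand: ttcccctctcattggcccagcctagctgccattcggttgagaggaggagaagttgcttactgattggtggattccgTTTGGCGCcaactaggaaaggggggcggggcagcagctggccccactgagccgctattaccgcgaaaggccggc
E2F2, chr1:23531204-23531353, minus strand: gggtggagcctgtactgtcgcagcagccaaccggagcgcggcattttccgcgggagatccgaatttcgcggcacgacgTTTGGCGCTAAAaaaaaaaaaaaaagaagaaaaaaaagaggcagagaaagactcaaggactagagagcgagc

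POLE2 held 2 matches, starting 81 and 5 bases before the transcript start, CDC6 held 1 that began at base 8 of the transcript, and CDC25A held 1 at 44 bases before it. E2F2 held 2 matches on opposite strands, at 42 and 38 bases before the start, which overlap each other. A match is a description of the letters and not evidence of binding.

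Some enzymes that make nucleotides also rose. Of 20 tested, 8 rose and none fell, with a median change of 0.29. RRM2, the subunit of ribonucleotide reductase whose level follows S phase, had the smallest p of any gene. Its intensity ran from 7581 to 9487 at 12 h (median 8460) and from 14570 to 17140 at 24 h (median 15820). The groups were far apart, with a rise of 0.90 ± 0.08 (adjusted p = 5.35e-07), 0.87 in population A and 0.93 in B, and a second probe set gave 0.79 ± 0.10. RRM1, the large subunit, rose by 0.53 ± 0.11 with groups that overlapped. TYMS, which makes thymidylate, went from 18210 ± 1790 to 26640 ± 2700 and rose by 0.55 ± 0.10. The purine enzymes GMPS (0.57), GART (0.42), PRPS1 (0.30) and PPAT (0.23) and the folate enzyme MTHFD1 (0.31) completed the 8. GMPS has 2 dimmer probe sets at 0.01 ± 0.11 and 0.22 ± 0.12. GART has 7 dimmer probe sets above the filter, from -0.32 ± 0.21 to 0.30 ± 0.10, of which 3 were below 0. With the mean of a gene's probe sets, 6 of the 8 kept their call, and GART (0.08, adjusted p = 0.532) and PPAT (0.05, adjusted p = 0.733) lost it. PPAT kept its call in 3 of the 12 fits that leave out 1 array, and the list had 5 rises without 12 h array B1 and 5 without 24 h array A3.

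Outside these lists, 3 genes that work in S phase were named by their p or their size. PCLAF, a partner of PCNA, went from 16000 ± 1040 to 24150 ± 2220 and rose by 0.59 ± 0.07 (adjusted p = 1.98e-05). SLBP, which binds the stem-loop of histone mRNA, went from 7881 ± 397 to 11080 ± 635 and rose by 0.49 ± 0.05 (adjusted p = 1.67e-05). TONSL, which acts at stalled forks, was dim (137 at 12 h) and rose by 0.99 ± 0.24, with no call for the mean of its probe sets (adjusted p = 0.0581). Of 13 histone genes tested, H1-10 (0.63) and H2AX (0.48) rose and H2AC6 fell (-0.95). The list median was -0.06, with -0.35 in population A and 0.18 in B, and 6 of the 13 had the same sign in both. H1-10 kept its call in 5 of the 12 leave-one-out fits and H2AX and H2AC6 in all 12.

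Of 39 genes of G2 and mitosis tested, 3 rose (7.69%, against 3.6% of all genes tested) and none fell. The median change was 0.06, with a range from -0.32 to 0.48. The mean of the list ran from -0.12 to 0.09 on the 12 h arrays and from 0.003 to 0.11 on the 24 h arrays, so the groups overlapped. CCNA2, the cyclin A2 gene, which is active from S phase on, lay between 3308 and 4585 at 12 h (median 3820) and between 4839 and 5853 at 24 h (median 5412). Its groups were apart and it rose by 0.46 ± 0.09 (adjusted p = 0.00302). The mitotic motors KIF23 (0.48 ± 0.14) and KIF11 (0.27 ± 0.07) passed more narrowly and kept their call in 4 and 6 of the 12 leave-one-out fits, so that CCNA2 was the 1 rise left without 12 h array B2 or B3 or 24 h array A1, A2 or B2. KIF23 was also lost with the mean of its probe sets (adjusted p = 0.535). CCNB1, the mitotic cyclin, changed by -0.05 ± 0.07 (8263 ± 870 and 7983 ± 597), the kinase PLK1 by 0.02 ± 0.13 and the proliferation antigen MKI67 by 0.12 ± 0.13, none of them called.

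The element CHR, with the letters TTTGAA searched on both strands, occurred in 21 of the 33 mitotic promoters matched (63.6%), in none of the 32 of the G1/S list, and in 10.3% of the promoters of genes tested. The E2F motif occurred in 2 of the 33. The 3 stretches below cover the same 150-base window as above, with the CHR letters in capitals. They are for the risen KIF11 and for BUB1B and CDCA8, which had a large statistic among the eligible members that were not called.

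KIF11, chr10:92593010-92593159, plus strand: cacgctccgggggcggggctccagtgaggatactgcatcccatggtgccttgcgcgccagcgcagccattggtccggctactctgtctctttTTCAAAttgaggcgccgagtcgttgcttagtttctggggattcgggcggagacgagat
BUB1B, chr15:40160949-40161098, plus strand: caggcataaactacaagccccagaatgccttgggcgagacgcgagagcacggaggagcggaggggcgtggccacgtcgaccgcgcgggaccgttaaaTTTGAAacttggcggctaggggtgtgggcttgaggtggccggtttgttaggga
CDCA8, chr1:37692396-37692545, plus strand: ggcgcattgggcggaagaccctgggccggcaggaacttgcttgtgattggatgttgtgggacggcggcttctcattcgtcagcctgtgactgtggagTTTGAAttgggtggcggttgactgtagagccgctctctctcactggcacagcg

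The CHR letters began 28 bases before the start in KIF11 and 23 bases before it in both BUB1B and CDCA8. BUB1B, a spindle checkpoint kinase, changed by 0.27 ± 0.09 (adjusted p = 0.0598), and CDCA8, a subunit of the chromosomal passenger complex, by 0.27 ± 0.09 (adjusted p = 0.0749).

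**Figure D2:**
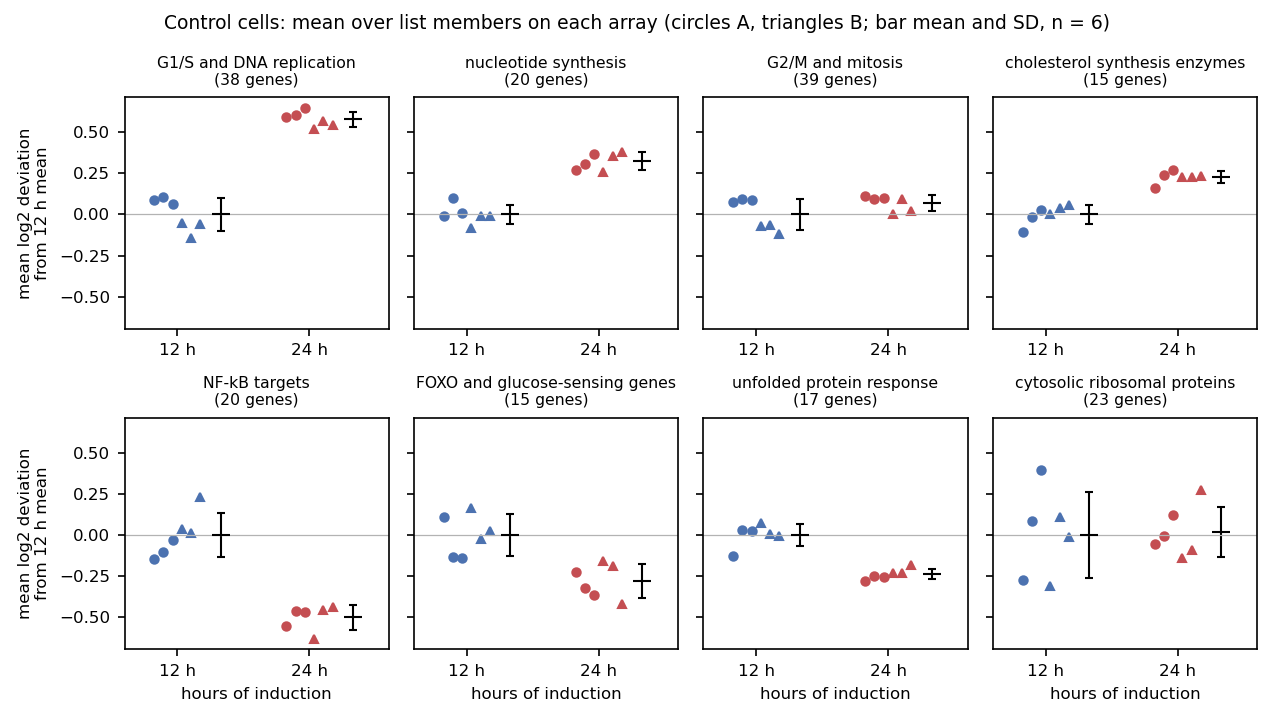
Mean log2 deviation of the list members from their 12 h mean (vertical axis, shared by all panels) on each control array at 12 h (blue) and 24 h (red), with circles for population A, triangles for population B and black bars for the mean and SD. The G1/S list sits at 0.52 to 0.65 and the NF-kB targets at -0.63 to -0.44 on the 24 h arrays, whereas the 24 h arrays of the G2/M list and of the ribosomal proteins overlap those at 12 h.

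Regulators of G1 changed selectively. Of 15 cyclin D, CDK and inhibitor genes tested, CCND3, CDK2 and CDK4 rose and BTG1 fell, with a median of 0.06. CCND3, the cyclin D3 gene, which is often mutated in Burkitt lymphoma, ran from 4783 to 7884 at 12 h (median 6432) and from 9046 to 11570 at 24 h (median 10320). Its groups were apart and it rose by 0.69 ± 0.11 (adjusted p = 0.000413). CDK4, the partner kinase of cyclin D, rose by 0.38 ± 0.08 and CDK2, the partner of cyclin E, by 0.49 ± 0.11, with 0.08 ± 0.17 on a second probe set. BTG1, an anti-proliferative gene of resting lymphocytes, went from 12160 ± 904 to 8863 ± 573 and fell by 0.45 ± 0.08. With the mean of a gene's probe sets, CDK2 (adjusted p = 0.178) and BTG1 (0.555) lost their calls. MYC itself was not called, with 36530 ± 5110 at 12 h and 29640 ± 5330 at 24 h (-0.31 ± 0.12, adjusted p = 0.123). No member passed among 10 genes of the MYC, MAX and MXD network, 27 of ribosome biogenesis (median 0.02) and 23 cytosolic ribosomal proteins (median 0.03). Of 17 growth genes that MYC regulates, CDK4 alone rose (5.88%, against 3.6% of all genes tested).

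Some genes that respond to low oxygen and to glucose use rose. Of 14 hypoxia genes tested, 3 rose and none fell, with a median of 0.10. PFKFB4, an enzyme that tunes glycolytic flux, ran from 75.8 to 247 at 12 h (median 120) and from 269 to 476 at 24 h (median 448). The groups did not overlap, and it rose by 1.52 ± 0.24 (adjusted p = 0.000419), 1.73 in population A and 1.31 in B. BNIP3, a mitophagy receptor induced by hypoxia, ran from 3453 to 4526 (median 4140) and then from 4916 to 7115 (median 5936). It rose by 0.56 ± 0.09, and a second probe set gave 0.60 ± 0.11. VEGFA, the angiogenic growth factor, went from 573 ± 79.1 to 882 ± 108 and rose by 0.62 ± 0.14. The 3 other probe sets of VEGFA had changes from 0.15 ± 0.25 to 0.68 ± 0.39, and their mean was not called (adjusted p = 0.0725). MIR210HG, the host transcript of the hypoxia-induced miR-210, was near the lower limit of the genes tested (37.9 at 12 h and 142 at 24 h), rose by 1.57 ± 0.43 and kept its call in 5 of the 12 leave-one-out fits.

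Among 20 genes of glycolysis and lactate export, 4 rose and 1 fell. PDK1, a kinase that inhibits pyruvate dehydrogenase, rose by 0.70 ± 0.14 and the enolase gene ENO2 by 0.77 ± 0.19. The phosphofructokinase gene PFKP rose by 0.49 ± 0.10 and the hexokinase gene HK2 by 0.42 ± 0.11. PDK1 and HK2 each have 2 dimmer probe sets, which gave 0.23 ± 0.15 and 0.31 ± 0.19 for PDK1 and -0.31 ± 0.19 and -0.13 ± 0.17 for HK2. PFKP has a dim second probe set at -0.38 ± 0.45. With the mean of a gene's probe sets, PFKP (0.05, adjusted p = 0.94) and HK2 (-0.005, adjusted p = 0.99) lost their calls, the latter with a turned sign. ALDOC, an aldolase gene, moved the other way. Its intensity ran from 2164 to 4469 at 12 h (median 3270) and from 1120 to 1852 at 24 h (median 1292). All 24 h arrays were below all 12 h arrays, and the fall was -1.22 ± 0.15 (adjusted p = 7.09e-05), with -0.84 in population A and -1.59 in B.

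Some enzymes of sterol and fatty acid synthesis rose by small amounts. Of 15 cholesterol synthesis enzymes, 6 rose and none fell, with a median of 0.28. They were DHCR7 (0.61), HMGCS1 (0.40), LSS (0.37), ACAT2 (0.36), IDI1 (0.29) and SQLE (0.28). HMGCS1, which makes HMG-CoA for the pathway, went from 1428 ± 152 to 1893 ± 247 with groups that overlapped. Of 12 genes of sterol uptake and regulation, with a median of -0.10, INSIG1, the sterol-sensing anchor of SREBP, rose by 0.60 ± 0.13 and SREBF1, the gene of SREBP-1, by 0.77 ± 0.22, and the cholesterol exporter ABCA1 fell by 0.81 ± 0.14. FASN (0.48), SCD (0.27) and ACLY (0.19) rose among 8 fatty acid synthesis genes. These counts were fragile, with 3 rises among the cholesterol enzymes and none among the fatty acid genes both after median centring and without the 2 arrays that stood apart. The cholesterol enzymes had 2 rises without 12 h array B1 and 3 without 24 h array A2, and the fatty acid genes had 0 or 1 without any single control array other than 24 h array B2. With the mean of a gene's probe sets, 2 of the 6 cholesterol enzymes and 1 of the 3 fatty acid genes kept their call. SREBF1 kept its call in 5 of the 12 leave-one-out fits and INSIG1 and ABCA1 in all 12.

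Genes of amino acid supply moved in part. Of 26 genes of the ATF4 response, 4 rose and 1 fell, with a median of 0.11. PSAT1, of serine synthesis, ran from 4763 to 5968 at 12 h (median 5130) and from 7470 to 9968 at 24 h (median 7912). Its groups were apart, the highest value being that of 24 h array B2, and it rose by 0.65 ± 0.09 (adjusted p = 8.66e-05). The serine enzyme PHGDH (0.35), the asparagine synthetase gene ASNS (0.29) and the folate enzyme MTHFD2 (0.24) rose, while DDIT3, the pro-apoptotic factor of this response, fell by 0.41 ± 0.10. MTHFD2 kept its call in 1 of the 12 leave-one-out fits, PHGDH in 7, DDIT3 in 9 and PSAT1 and ASNS in all 12, so that the list had 2 rises without 12 h array B1 or B2 or 24 h array A1, A2 or A3. YARS1 (0.30) and GARS1 (0.26) rose among 12 aminoacyl-tRNA synthetase genes, and the spermine synthase gene SMS (0.52) rose among 10 of polyamine metabolism. MTHFD2 (adjusted p = 0.056) and YARS1 (0.616) were lost with the mean of their probe sets.

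Some genes of the endoplasmic reticulum stress response fell. Of 17 genes of the unfolded protein response, 5 fell and none rose, with a median of -0.22. HSP90B1, the chaperone GRP94, ran from 5309 to 5979 at 12 h (median 5621) and from 2301 to 4713 at 24 h (median 4145). The groups were apart, the lowest value being that of array B2, and the change was -0.53 ± 0.12 (adjusted p = 0.00944). HSPA5, the chaperone BiP, went from 24310 ± 1720 to 20450 ± 1380 and fell by 0.25 ± 0.06. DNAJB9 (-0.40), the transcription factor gene XBP1 (-0.28) and SEL1L (-0.28), of the degradation complex, were the other falls. HSP90B1 kept its call in all 12 leave-one-out fits, whereas the list had 1 to 3 falls in 9 of them, those without any single control array other than 12 h A3 and 24 h B1 and B2. It had 1 fall after median centring, 2 of the 5 with the mean of a gene's probe sets, and 5 without the 2 arrays that stood apart. In contrast to these, DNAJB1 rose by 0.37 ± 0.07 among 9 heat shock chaperone genes of the cytosol and nucleus.

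Some NF-kB targets fell. Of 20 tested, 7 fell and none rose, with a median of -0.52, the lowest of the 41 lists, and changes from -1.16 to 0.55. The mean of the list ran from -0.14 to 0.23 on the 12 h arrays and from -0.63 to -0.44 on the 24 h arrays. TNFAIP3, the feedback inhibitor A20, ran from 404 to 679 at 12 h (median 519) and from 239 to 317 at 24 h (median 279). The groups were apart, the fall was -0.88 ± 0.11 (adjusted p = 3.52e-05), and a dimmer probe set gave -1.21 ± 0.24. NFKBIA, the inhibitor IkB-alpha, went from 2512 ± 384 to 1562 ± 211 and fell by 0.68 ± 0.11. The surface proteins CD83 (-0.78 ± 0.13) and CD40 (-0.59 ± 0.08), the cytokine lymphotoxin beta LTB (-1.06 ± 0.21), the chemokine CCL4 (-0.73 ± 0.17) and the survival gene BCL2A1 (-0.67 ± 0.20) also fell. Of these 7, BCL2A1 was the one with overlapping groups, and it kept its call in 4 of the 12 leave-one-out fits against 12 for the others. LTB was lost with the mean of its probe sets (adjusted p = 0.148). The counts were 6 after median centring and 8 without the 2 arrays that stood apart.

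Of 15 promoters matched for this list, 2 held the NF-kB letters GGGANTTCC on either strand (13.3%), against 2.30% of the promoters of genes tested. TNFAIP3 is shown as the fallen member with a match, which began 55 bases before the start, in the same window and with the match in capitals.

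TNFAIP3, chr6:137867139-137867288, plus strand: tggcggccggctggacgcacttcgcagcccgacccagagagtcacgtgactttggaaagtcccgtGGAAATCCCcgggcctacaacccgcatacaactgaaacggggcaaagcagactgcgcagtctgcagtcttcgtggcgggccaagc

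A pair of further genes tied to B-cell activation fell. CD86, a costimulatory ligand for T cells, ran from 3564 to 4235 at 12 h (median 3672) and from 1527 to 2157 at 24 h (median 2091). All 24 h arrays were below all 12 h arrays, the fall was -0.90 ± 0.08 (adjusted p = 1.4e-06), and the 2 other probe sets gave -0.80 ± 0.09 and -0.99 ± 0.13. MIR146A, the gene of an NF-kB-induced microRNA, ran from 324 to 543 (median 440) and then from 145 to 246 (median 163). Its fall was -1.22 ± 0.14 (adjusted p = 2.05e-05), with -0.81 in population A and -1.62 in B. The probe set was assigned to MIR146A by the platform table and can reach a precursor or host transcript, whereas the mature microRNA was not measured.

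Some immediate early genes fell as well. Of 17 immediate early genes, NR4A1, JUN, EGR3, ZFP36L1 and IER5 fell, with a list median of -0.23. IER5 was the steadiest, from 1143 ± 35.5 to 866 ± 53.2 with groups apart (-0.40 ± 0.08). NR4A1 (-1.32 ± 0.37) and JUN (-1.30 ± 0.38) were dim (246 and 176 at 12 h), and each kept its call in 4 of the 12 leave-one-out fits. The list had 2 falls after median centring, 1 without 12 h array B1 or B3, 2 without 24 h array A2, and 3 without 12 h array A2 or B2 or 24 h array A1, B1 or B3. JUN (adjusted p = 0.176) and ZFP36L1 (0.172) were lost with the mean of their probe sets. ID2, an inhibitor of E-protein transcription factors, fell from 422 ± 74.6 to 179 ± 59.5 (-1.26 ± 0.23) and held in all 12.

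Of 15 genes of the FOXO and glucose-sensing list, 5 fell and none rose, with a median of -0.28. TXNIP, a brake on glucose uptake, ran from 4653 to 6295 at 12 h (median 5808) and from 3132 to 4522 at 24 h (median 3618). The groups were apart, its change was -0.60 ± 0.09 (adjusted p = 0.000372), and 2 further probe sets gave -0.68 ± 0.17 and -0.70 ± 0.14. PIK3IP1, an inhibitor of PI3-kinase (-0.87 ± 0.17), TSC22D3, the glucocorticoid-induced leucine zipper (-0.54 ± 0.10), FOXO3 (-0.38 ± 0.09) and BTG1, described above, were the others. The count was 4 after median centring, with FOXO3 lost (adjusted p = 0.0766), and 4 with the mean of a gene's probe sets, with BTG1 lost.

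Surface and antigen-presentation genes of B cells changed in single members. Of 24 genes of B-cell receptor signalling, 4 fell and none rose, with a median of -0.12. CD79B, a signalling chain of the receptor, ran from 10580 to 12740 at 12 h (median 11650) and from 6661 to 8513 at 24 h (median 8078). The groups were apart and the change was -0.55 ± 0.07 (adjusted p = 8.89e-05), although a dim second probe set had 0.57 ± 0.40, and the mean of its probe sets gave 0.01 with no call (adjusted p = 0.989). BANK1, a scaffold of the receptor pathway, fell by 0.42 ± 0.07, and its 2 other probe sets gave -0.54 ± 0.11 and -0.49 ± 0.10. RASGRP3 (-0.37 ± 0.11) and the inhibitory receptor CD72 (-0.33 ± 0.08) also fell, the former in 6 of the 12 leave-one-out fits. Of 16 genes of MHC class II presentation, HLA-DQB1 (-0.50 ± 0.10), the protease CTSS (-0.50 ± 0.12) and the transcription factor RFX5 (-0.28 ± 0.07) fell. The list median was -0.04, with 7 changes above 0, among them that of CD74 (0.35), which was not called. The other HLA-DQB1 probe sets above the filter gave changes from -0.84 ± 0.15 to -0.43 ± 0.08. Class II genes resemble each other, so the HLA-DQB1 value is uncertain. No member passed among 15 MHC class I genes (median -0.11), 17 germinal centre genes (median 0.01) and 13 transcription factors of B-cell identity (median -0.17). Of the 13 identity factors, 10 had a change below 0. Their list mean ran from -0.04 to 0.08 on the 12 h arrays and from -0.17 to -0.07 on the 24 h arrays. VIM, the intermediate filament gene that P3HR1 cells also express, went from 8434 ± 724 to 12760 ± 1320 and rose by 0.59 ± 0.09. It was the 1 called gene of 9 fibroblast and epithelial markers, of which 4 passed the filter and were tested. Their summed level, VIM included, ran from 8403 to 10720 at 12 h and from 11570 to 15200 at 24 h. DCN had 597 ± 78.6 at 12 h and 439 ± 112 at 24 h, COL1A1 116 and 158, and KRT8 137 and 106, none of them called. Of the markers that did not pass the filter, CDH1 and KRT18 were below 20 at 24 h. EPCAM had 16.3 at 12 h and 42.1 at 24 h, COL1A2 51.1 and 58.2, and COL3A1 45.2 and 33.0.

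**Figure D3:**
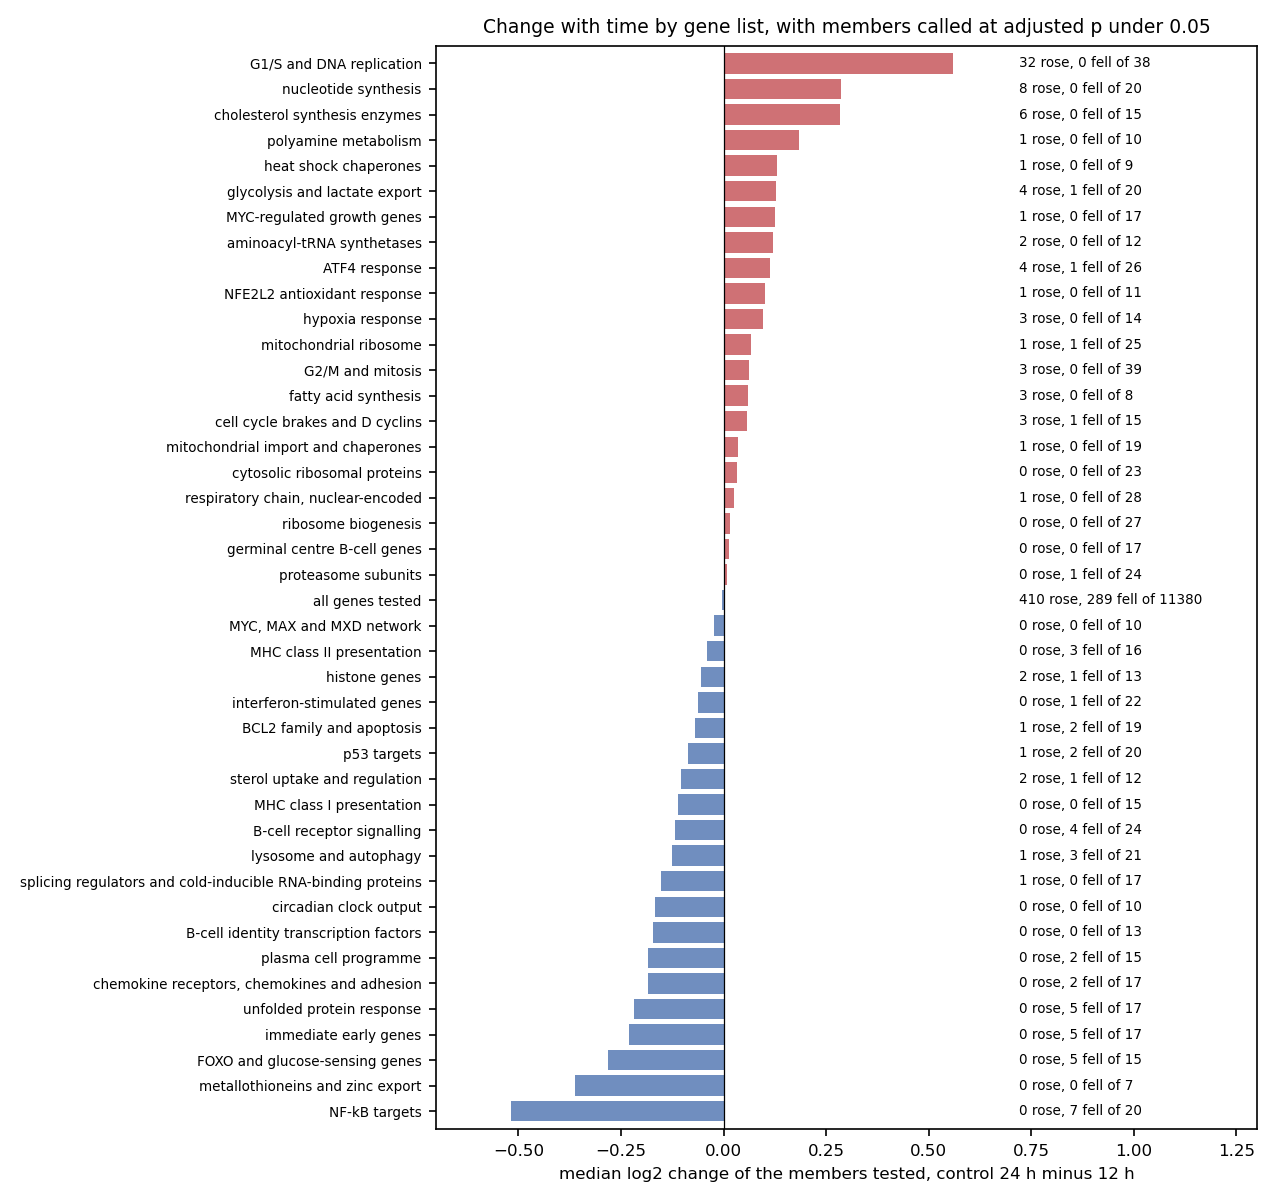
Median log2 change of the tested members, control 24 h minus 12 h (horizontal axis), for the 41 gene lists and all genes tested, with the number of members that rose or fell written beside each bar. G1/S and DNA replication has the highest median, 0.56 with 32 rises of 38, and NF-kB targets the lowest, -0.52 with 7 falls of 20.

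The remaining lists had few calls. Of all genes tested, 3.6% rose and 2.54% fell, and a single rise or fall made up 3.57% to 9.09% of these lists. Such single calls say little about a list as a whole. Among 20 p53 targets DDB2 rose (0.58) and TP53INP1 (-0.67) and FAS (-0.35) fell, and among 19 apoptosis genes BIK rose (0.52) and CASP8 (-0.39) and BCL2A1 fell. Of 21 lysosome and autophagy genes WIPI1 rose (0.56) and SQSTM1 (-0.52), MAP1LC3B (-0.46) and CTSS fell. CD27 (-0.45) and XBP1 fell among 15 plasma cell genes, ICAM2 (-0.50) and CCL4 among 17 genes of chemokines and adhesion, ISG20 (-0.35) among 22 interferon-stimulated genes, and PSMB7 (-0.23) among 24 proteasome subunits. Single rises were those of GCLM (0.48) among 11 antioxidant genes, NDUFS1 (0.25) among 28 respiratory chain genes, TRAP1 (0.27) among 19 of mitochondrial import, and HNRNPDL (0.40) among 17 splicing regulators. Of 25 mitochondrial ribosome genes MRPS5 rose (0.25) and MRPL1 fell (-0.29). In the leave-one-out fits ISG20, GCLM and TRAP1 kept their call in 4 of 12, PSMB7 in 3, NDUFS1 in 5, SQSTM1 in 6 and WIPI1 in 7, and the other genes new to this paragraph in all 12. FAS, SQSTM1, ISG20, PSMB7, GCLM, NDUFS1 and MRPS5 were lost with the mean of their probe sets. None of 10 circadian clock genes and 7 metallothionein and zinc export genes was called. Their medians were -0.17, with 8 of 10 changes below 0, and -0.36, with all 7 below 0.

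A pair of genes outside all lists were among the clearest falls by p or size. TNKS, the gene of the poly-ADP-ribosylating enzyme tankyrase, ran from 2469 to 2805 at 12 h (median 2668) and from 1430 to 1788 at 24 h (median 1546). The groups were apart and the fall was -0.76 ± 0.07 (adjusted p = 1.86e-06), with -1.07 ± 0.13 on a second probe set and 0.04 ± 0.61 on another near the lower limit, and the mean of its probe sets was not called (adjusted p = 0.108). RNA45SN5, a copy of the ribosomal RNA precursor gene, went from 1390 ± 239 to 607 ± 60.4 (-1.17 ± 0.19). That gene has many near-identical copies, so its value cannot be assigned to 1 locus. The largest changes of all belonged to dim genes, such as OXER1 (1.80 ± 0.53) and UFSP1 (-1.85 ± 0.54), whose groups overlapped and which kept their calls in 2 and 3 of the 12 leave-one-out fits. Called genes were split by their mean intensity, and the median size of the change was 0.88 in the 48 at or below 300 and 0.35 in the 221 over 3000. A gene with a larger SE, such as OXER1 (0.53, against 0.07 for the bright PCLAF), had to change more to be called. The split therefore does not show that dim genes changed more. Among brighter genes, IMMP2L, of a mitochondrial peptidase, went from 451 ± 116 to 951 ± 75 and rose by 1.10 ± 0.14 in all 12.

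The populations A and B were set against each other, since they share no array. Each was fitted without the other, with the miR-28 arrays of the same letter kept to estimate the spread. The control change then gave 17 calls in A and 34 in B, with 4 in both (23.5% of the first and 11.8% of the second). All 17 calls of A had the same sign in B, and 33 of the 34 calls of B had the same sign in A, against 63.2% of all genes tested. Across all 11380 genes the changes in A and B had r = 0.224 and rho = 0.316. That correlation is across genes, which are not independent replicates. All 699 genes called in the joint fit had the same sign in both, which calling them on both populations favours. No gene was called for a difference of the change between populations (0%, limma, lowest adjusted p 0.998), with 464 at an unadjusted p under 0.05. The count was also 0 under the other settings run, except that 1 gene was called without 24 h array B3. With each population's mean as the unit, no gene was called for the change with time and 1915 had an unadjusted p under 0.05.

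**Figure D4:**
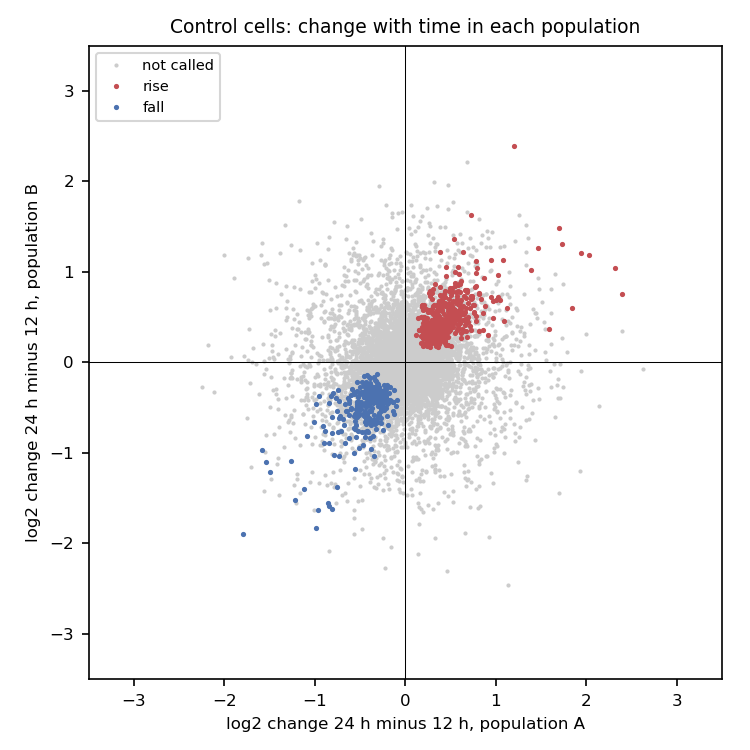
Log2 change from 12 h to 24 h in control population A (horizontal axis) and population B (vertical axis) for the 11380 genes tested, each with 3 arrays a time. The 410 rises (red) lie in the upper right and the 289 falls (blue) in the lower left, and genes that were not called are grey.

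The same change was measured in cells with the miR-28 precursor, on arrays that share none with the controls. There 530 genes were called (4.66%), 302 rises and 228 falls. Both genotypes called 233 genes, which is 33.3% of the control calls and 44% of the miR-28 calls. Both changes came from the same fit, with a shared estimate of each gene's spread, which favours genes being called in both. Of the 699 control calls 657 (94%) had the same sign in miR-28 cells, against 64.8% of all genes. The G1/S list had 19 rises and a median of 0.36 there, against 32 and 0.56 in control cells. RRM2 rose by 0.59 ± 0.08 and CCNE1 by 0.76 ± 0.12 in miR-28 cells. The G2/M list had a median of -0.20 with 12 members called lower, against 0.06 and none lower in control cells. For PLK1 the change was -0.49 ± 0.13 in miR-28 cells and 0.02 ± 0.13 in control cells, a difference of -0.51 that was not called (adjusted p = 0.55). The NF-kB targets had a median of -0.32 with 5 falls, and the change of ALDOC was -1.30 ± 0.15 there and -1.22 ± 0.15 in control cells. CD86 fell by 0.43 ± 0.08 in miR-28 cells and by 0.90 ± 0.08 in control cells, a difference that was not called either (adjusted p = 0.34).

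No gene passed the test of the difference between genotypes in the change with time (0%, limma), while 787 had an unadjusted p under 0.05. The count was 0 under every other setting run. The 5 genes with the smallest p all had an adjusted p of 0.291. They were SMIM19 (-0.46 ± 0.09), the separase gene ESPL1 (-0.58 ± 0.12), CLSTN3 (2.18 ± 0.46), TNKS (0.48 ± 0.10) and PARVG (0.82 ± 0.18), each as miR-28 minus control. A p that misses the threshold does not show that the genotypes changed alike.

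**Figure D5:**
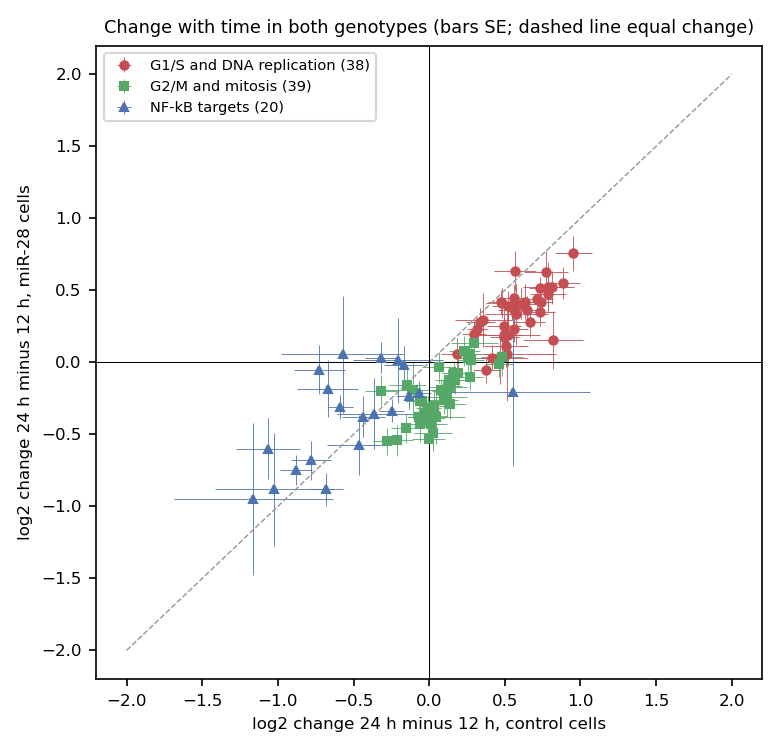
Log2 change from 12 h to 24 h in control cells (horizontal axis) and in miR-28 cells (vertical axis) for the tested members of the G1/S (38, red), G2/M (39, green) and NF-kB (20, blue) lists, with bars for the SE and a dashed line of equal change. The G1/S members lie to the right, with medians of 0.56 and 0.36, and the G2/M members lie near 0 in control cells and mostly below 0 in miR-28 cells, with medians of 0.06 and -0.20.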

How the data were processed

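RNA from 24 cultures was hybridised to Affymetrix arrays. The authors made linear probe-set intensity with MAS5, per the submitters' processing notes, and its version, settings and genome build are not given in the sources used here. Since all deposited columns shared a 2% trimmed mean between 500.07 and 500.08, no further scaling was applied. Precision is limited by how many arrays there are. The labels used here name no batch.

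Of 54675 probe sets, 62 were controls. Of the rest, 41091 had 1 gene symbol by the platform annotation, 1801 had several and for 11721 none was listed. RefSeq gene numbers served to update symbols (54 unmatched), and only probe sets with 1 symbol were used. Values were analysed as log2(intensity + 8), which makes changes of dim genes look smaller. Each gene took its brightest probe set, and 11380 of 19775 genes had a mean above 6.108. Group means of genotype and time over all 24 arrays were fitted in R 4.3.3 (limma 3.58.1, statmod 1.5.0), taking the population within genotype as a random block (consensus correlation -0.0229). Tests were two-sided, and calls used a Benjamini-Hochberg adjusted p under 0.05. A fit with 8 means tested the difference between populations. The scripts were tested on simulated data. Tables and figures used Python 3.11.15, pandas 2.3.3, scipy 1.17.1 and matplotlib 3.10.9.

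The arrays, the 41 gene lists, the markers, the motifs and the naming rule were chosen with earlier results of these data known. The rule named the 15 largest rises and 15 largest falls with the same sign in both populations, the 10 smallest p, 3 members per list by largest statistic, called members of lists, and for each difference up to 5 genes each way or the 5 smallest p. Not all of them are printed. Uncalled genes given for their role, such as CCNB1, PLK1 and MKI67, were chosen after their values were seen. Alternatives covered scaling, pseudocount, filter, probe-set choice, variance model, blocks and each control array left out.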

Additional observations from a re-analysis of the deposited data

Results flagged for a closer look

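Among 330 groups of 6 arrays examined, 19 had 1 array whose gap to the nearest other array was large for the range of the group (Dixon's criterion at the 95% level). Chance flags about 1 group in 20, so a number of this order is no pattern by itself. The values are intensities unless stated.

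Control population B induction 2 at 24 h was the far array for 7 of the 19. It had the lowest CD86 (1527), HSP90B1 (2301) and CCL4 (108), the highest PSAT1 (9968) and EZH2 (4057), and the highest log2 ratio of 3' to 5' signal for ACTB (1.59) and GAPDH (0.29). CD86, HSP90B1, CCL4 and PSAT1 kept their calls without this array and 12 h array A3. The part of RNA quality in these values was not tested.

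Induction B3 had the highest CD86 (4235) and SREBF1 (293) at 12 h and the lowest LTB (126) at 24 h. Induction B2 at 12 h had the lowest CDC6 (1012). Induction B1 at 12 h had the highest CASP8 (1773) and the lowest PSMB8 (3462). Induction A1 at 12 h had the lowest MYC (26850) and PSMB7 (11840) and the highest SMS (3500). Induction A2 at 24 h had the lowest NR4A1 (28.7). Induction A3 at 12 h had the lowest FAM210B (19.0) and MOV10 (68.3).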

How the results depend on the processing

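The count of 699 genes called with time moved by more than 1.5 times under 6 alternatives. It was 421 after median centring (280 rises and 141 falls, 418 of them among the 699), 364 with no filter and 397 with control arrays alone. It was 17 and 34 with population A or B alone, arrays of both genotypes being kept in those fits, and 0 with population means as the unit. Leaving out 1 array gave 491 to 709. The remaining alternatives gave 573 to 890, the extremes being a fixed replicate block and a filter at mean log2 above 8. Same-numbered arrays were not paired: their deviations correlated at 0.00057 to 0.0695, and the random replicate block called 839 genes. The difference between populations was called for 0 genes, and 1 without control 24 h array B3, so leaving out 1 array gave 0 to 1. The difference between genotypes was called for 0 genes throughout. Of single-gene results, 3901 kept direction and call, 761 lost the call, 78 gained it and 1 reversed. That was CD79B with the mean of its probe sets (0.0108, adjusted p = 0.989), a dim second probe set having the opposite sign. HK2, not counted there, turned with the same setting (-0.005). The cause of the other shifts was not tested. Signal over background limits dim genes. They had the larger changes among called genes, where a larger SE asks for a larger change.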
